A study of Rattus norvegicus with 8 samples.

Results

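Atp2a2 and Ryr2 encode the 2 central calcium transport proteins of the sarcoplasmic reticulum, the internal calcium store of heart muscle cells. Atp2a2 encodes the pump SERCA2, which returns calcium from the cytosol to the store. Ryr2 encodes the ryanodine receptor, the channel through which the store releases calcium. In pacemaker cells, spontaneous openings of this channel late in diastole feed calcium to the sodium-calcium exchanger, whose inward current helps to bring the membrane to threshold. How fast the pump refills the store helps to set when the next release can occur.

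The 2 genes were taken by their Ensembl identifiers, ENSRNOG00000001285 for Atp2a2 and ENSRNOG00000017060 for Ryr2, from the 32285 genes of the deposited table. The identifiers carry no symbols in that table, so both names rest on the identifiers by which the genes were chosen. RNA was measured by ribosome-depleted total RNA sequencing of the sinoatrial node, where the heartbeat starts, in Dahl salt-sensitive rats of the strain SS/JrHsdMcwiCrl. The 4 Control libraries came from rats given chow with 0.4% NaCl and the 4 HFpEF libraries from rats given chow with 8% NaCl, each for 11 weeks, and all 8 share the salt-sensitive background. HFpEF is heart failure with preserved ejection fraction, which in this strain follows salt-induced hypertension. No group received the salt-rich chow without the disease model, so salt intake, hypertension and heart failure cannot be told apart. Nothing in the labels states that the libraries of a group stem from different rats, and p-values here reflect only how far the libraries spread, which may be technical.

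Total expected counts ran from 31774820 to 38889395 per library, and a group difference was not established (exact two-sided permutation p = 0.171). HFpEF replicates 2, 3 and 4 held the fewest (31774820, 34840006 and 34912426), below the lowest Control library (35945522). HFpEF replicate 1, with 37180059, lay inside the Control range. Replicates 2, 3 and 4 were also lowest for Atp2a2 and for its ratio to Ryr2, given below. The part of depth in this was not tested. The first principal component of log2 CPM, holding 33.2% of the variance, placed HFpEF replicate 2 farthest from the Control libraries. Marker lists for myocytes and other cell types could not be matched to the identifiers, so the dissected tissue was not checked against its markers. In a whole-tissue library, fewer cells of a type and less RNA per cell cannot be told apart.

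Both genes drew many reads in the node. By mean normalised CPM (CPM, a gene's share of a library's counts after TMM scaling), Atp2a2 stood at place 9 and Ryr2 at place 21 of 16313 tested genes. Atp2a2 took between 0.786% and 1.29% of all counts in a library and Ryr2 between 0.348% and 0.440%. Transcript lengths for the genome build used were not at hand, so these places and shares rank genes by reads drawn, which grow with transcript length, and not by the abundance of their transcripts. Counting error was small at this depth, at most 0.200% of the value for Atp2a2 and 0.301% for Ryr2.

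The 250 bases before the RefSeq transcription start of each gene (build GRCr8, found by symbol) are shown because they are the promoter sequence of the 2 genes whose levels are compared. Both lie on the plus strand, Atp2a2 at chr12:39733269-39733518 and Ryr2 at chr17:63081277-63081526. The counts themselves were made on the build rn6. Capitals mark each GC box (GGGCGG, the core recognised by Sp1-type factors) and each CCAAT box (CCAAT) on either strand.
Atp2a2: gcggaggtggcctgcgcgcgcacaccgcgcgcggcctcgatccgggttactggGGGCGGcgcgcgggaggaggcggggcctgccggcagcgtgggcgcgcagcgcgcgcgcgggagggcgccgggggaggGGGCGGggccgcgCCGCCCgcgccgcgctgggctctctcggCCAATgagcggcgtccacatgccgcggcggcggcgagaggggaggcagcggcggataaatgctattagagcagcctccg
Ryr2: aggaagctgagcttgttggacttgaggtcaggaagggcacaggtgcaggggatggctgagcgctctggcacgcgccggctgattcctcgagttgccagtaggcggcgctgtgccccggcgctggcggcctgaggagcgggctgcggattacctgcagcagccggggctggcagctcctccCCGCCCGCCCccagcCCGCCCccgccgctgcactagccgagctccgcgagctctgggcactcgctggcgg

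The Atp2a2 window held 3 GC boxes, 2 on the plus strand and 1 on the minus strand, and 1 CCAAT box that began 79 bases before the start. The Ryr2 window held 3 GC boxes, all on the minus strand and the first 2 of them overlapping, and 0 CCAAT boxes. Of 33469 RefSeq windows of this length, 30.5% held a GC box and 34.0% a CCAAT box on either strand. Each of the 2 windows also held 1 E-box (CANNTG, present in 65.5% of windows) and 0 matches to TATAAA (present in 12.9%). GC content was 80.0% for Atp2a2 and 72.0% for Ryr2, against a median of 51.2% over all windows. It was lower than in Atp2a2 in 98.9% of windows and lower than in Ryr2 in 94.0%. The shares of windows with a match were taken over all windows, not over windows of like GC content. Such matches describe letters and do not show a bound site.

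Atp2a2 stood lower in all 4 HFpEF libraries than in any Control library, but the difference did not pass the test across all genes. Its normalised CPM was 11665.5, 11853.2, 12604.3 and 13143.3 in Control replicates 1 to 4. In HFpEF replicates 1 to 4 it was 11595.0, 7897.5, 9090.8 and 9603.1. HFpEF replicate 1 lay next to the Control libraries, 70.5 CPM (0.604%) under the lowest of them, while HFpEF replicates 2, 3 and 4 lay well apart. The groups therefore did not overlap, though by a margin that replicate 1 made narrow. A lack of overlap in this direction was found in 5.73% of all tested genes.

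Mean Atp2a2 was 12317 ± 684 CPM in Control against 9547 ± 1541 CPM in HFpEF (SD, n = 4 per group). The log2 fold change of HFpEF over Control was -0.37 with a standard error of 0.12 and a 95% interval from -0.63 to -0.10, a difference of -22.5%. Its unadjusted p was 0.0121 in edgeR's quasi-likelihood test, and its Benjamini-Hochberg adjusted p over all 16313 genes was 0.140, short of the threshold of 0.05. DESeq2 did call it (adjusted p = 0.0269, log2 fold change -0.36). DESeq2 called 1248 genes in all, 392 of them lower in HFpEF, where edgeR called 316 and 65. Over the other alternatives the adjusted p of Atp2a2 ran from 0.0515 to 0.279. The lowest of those came without HFpEF replicate 1, where the log2 fold change was -0.47. The smallest change came without HFpEF replicate 2, where the log2 fold change was -0.28.

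For background, edgeR called 1.94% of the tested genes, 0.398% as lower in HFpEF and 1.54% as higher, and neither Atp2a2 nor Ryr2 was among them. These 316 calls (251 higher, 65 lower) changed when single libraries were removed. Removing Control replicate 1, 2, 3 or 4 left 22, 89, 24 or 157. Removing HFpEF replicate 2, 3 or 4 left 186, 157 or 245, while removing HFpEF replicate 1 gave 332. With 1 library left out, the higher calls ran from 21 to 234 and the lower ones from 0 to 98. The 0 came without Control replicate 3, where 2522 genes, higher and lower together, had an unadjusted edgeR p under 0.05. Groups without overlap and lower in HFpEF were found in 5.73% of the tested genes (934, Atp2a2 among them), and without overlap and higher in 6.74%. An unadjusted p under 0.05 with a lower level in HFpEF was found in 8.36%. By p, Atp2a2 stood at place 1408 and Ryr2 at place 6678.

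**Figure D1:**
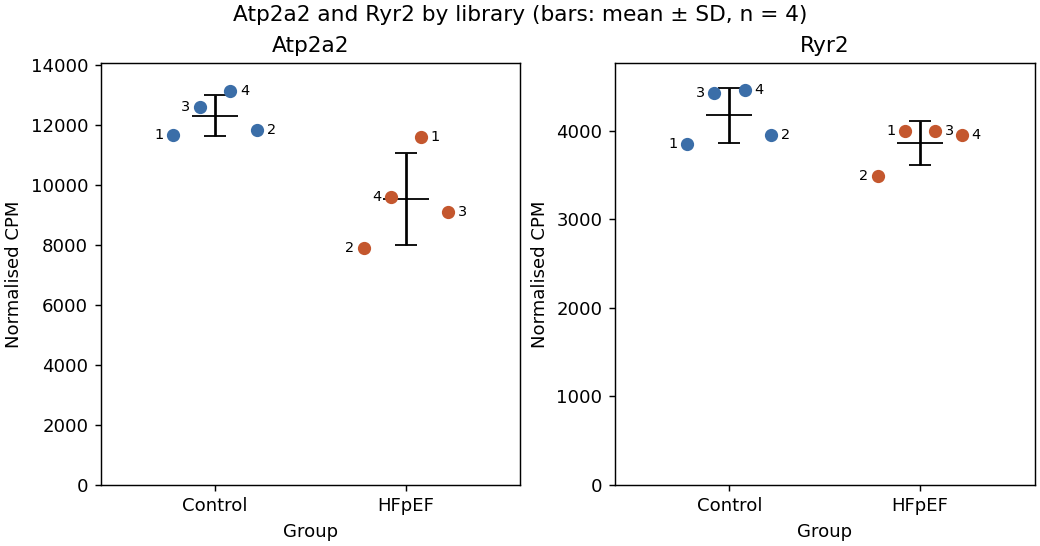
Normalised CPM (vertical axis) of Atp2a2 and Ryr2 in each library by group; points are libraries labelled with their replicate number, and bars are the mean ± SD (n = 4). Atp2a2 lies between 11665.5 and 13143.3 in Control and between 7897.5 and 11595.0 in HFpEF, while the Ryr2 values of the groups overlap.

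Ryr2 overlapped between the groups and did not pass the test. Its normalised CPM was 3854.7, 3956.8, 4426.3 and 4468.1 in Control replicates 1 to 4. In HFpEF replicates 1 to 4 it was 3999.5, 3496.9, 4004.0 and 3953.6. HFpEF replicates 1, 3 and 4 lay close together and inside the Control range, and only HFpEF replicate 2 lay under it.

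Mean Ryr2 was 4176 ± 316 CPM in Control against 3864 ± 245 CPM in HFpEF (SD, n = 4 per group). The log2 fold change was -0.11 with a standard error of 0.08 and a 95% interval from -0.29 to 0.07. In percent, this interval runs from -18.5% to 4.96%, and it overlaps the interval of Atp2a2, which runs from -35.5% to -6.83%. That overlap does not compare the 2 genes, which were measured in the same libraries. Their ratio within each library, given below, does so. The edgeR adjusted p was 0.480. Without HFpEF replicate 2 the log2 fold change was -0.06 and with limma-voom sample weights it was -0.07. The largest change came without Control replicate 1, at -0.15.

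The ratio of Atp2a2 to Ryr2 counts within a library is unchanged by scaling or by dividing by the library's total. It was 3.026, 2.996, 2.848 and 2.942 in Control replicates 1 to 4. It was 2.899, 2.258, 2.270 and 2.429 in HFpEF replicates 1 to 4. The 4 Control values lay in a narrow band, and HFpEF replicate 1 lay inside it, above Control replicate 3. The other 3 HFpEF libraries lay below every Control library.

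The mean ratio was 2.95 ± 0.0784 in Control against 2.46 ± 0.300 in HFpEF (SD, n = 4 per group). On the log2 scale the HFpEF mean was lower by a difference of -0.27, or -17.0%. An exact two-sided permutation test over the 70 splits gave p = 0.0571, where the smallest p it allows is 0.0286. The interval from inverting that test (97.1% confidence) ran from -0.42 to 0.03 on the log2 scale. An unequal change of the 2 genes was thus not established at 0.05 with these 8 libraries. Without HFpEF replicate 1 the log2 difference was -0.35, and without HFpEF replicate 2 it was -0.23.

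**Figure D2:**
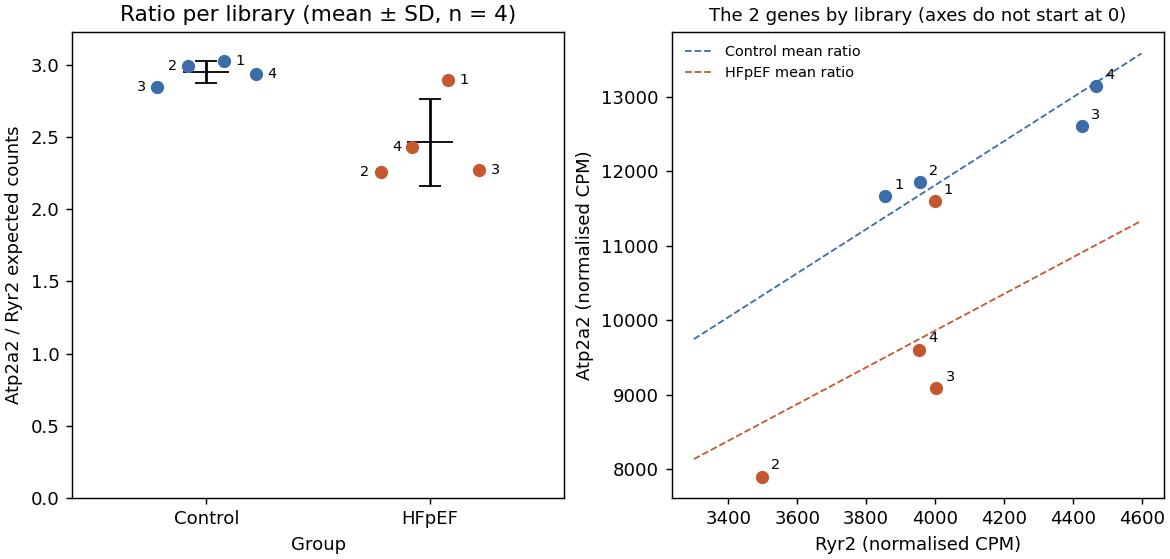
Left, the ratio of Atp2a2 to Ryr2 expected counts in each library by group, with mean ± SD (n = 4). Right, the normalised CPM of Atp2a2 (vertical) against that of Ryr2 (horizontal) per library, with dashed lines at the mean ratios of 2.95 (Control) and 2.46 (HFpEF). HFpEF replicate 1 lies near the Control line, and HFpEF replicates 2, 3 and 4 lie below the HFpEF line.

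Atp2a2 spread more among the HFpEF than among the Control libraries, while Ryr2 did not. The SD of log2 CPM for Atp2a2 was 0.080 in Control and 0.23 in HFpEF. For Ryr2 it was 0.11 in Control and 0.095 in HFpEF. Across the 65 genes whose mean was 1000 CPM or more, the SD had a median of 0.093 in the Control and 0.18 in the HFpEF libraries. Among these, 20 genes varied more than Atp2a2 across the HFpEF libraries and 57 varied more than Ryr2, so few of these genes varied less than Ryr2. This spread was not tested.

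The most counted genes give the setting for these values. The 21 genes at or above the mean CPM of Ryr2, both genes included, had a median log2 fold change of -0.0028, and 11 of them were lower and 10 higher in HFpEF. Of these 21, 2 had a log2 fold change at or below that of Atp2a2, itself included. In 4 of the 21, Atp2a2 among them, the HFpEF libraries lay below all Control libraries, where 5.73% of all tested genes did, and in 0 they lay above them, where 6.74% of all tested genes did. Whether the most counted genes differed from the rest in this was not tested. edgeR called 0 of the 21. Over all tested genes the median log2 fold change was -0.0041.

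**Figure D3:**
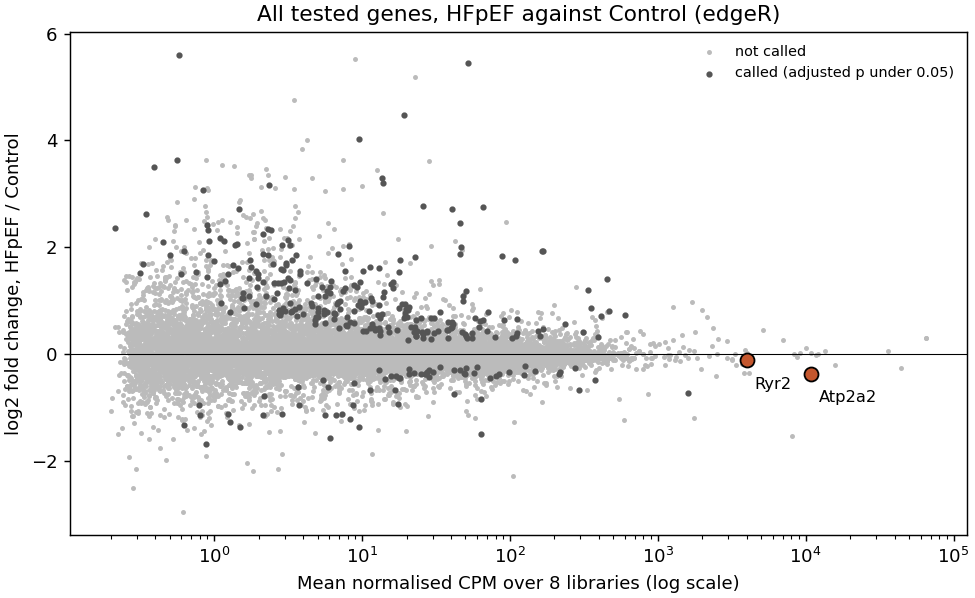
Log2 fold change of HFpEF over Control (vertical) against mean normalised CPM on a log scale (horizontal) for the 16313 tested genes, with called genes in dark grey and Atp2a2 and Ryr2 in orange. Both genes sit at the high-count end, Atp2a2 at -0.37 and Ryr2 at -0.11, and neither is called.

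The order of the libraries differed between the 2 genes. On the first principal component, which includes both genes, HFpEF replicates 4, 1, 3 and 2 lay in that order away from Control, with values of 10.6, 11.5, 26.5 and 51.6. From highest to lowest, Atp2a2 took the HFpEF libraries in the order 1, 4, 3 and 2, so the pair nearest to Control on that axis also held the most Atp2a2. Ryr2 ordered them 3, 1, 4 and 2. HFpEF replicate 2 was thus lowest for Atp2a2, for Ryr2 and for their ratio, and it was also the library with the fewest counts. The part of depth, cell composition or RNA quality in this order was not tested.

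Across the 8 libraries, more genes followed Atp2a2 than followed Ryr2. Of 8925 other genes with at least 10 mean CPM, 64 had a Pearson correlation of log2 CPM with Atp2a2 of at least 0.95, and 14 had a negative one of that size. For Ryr2 these counts were 2 and 0. The correlations ran over both groups together, so genes that differ between the groups correlate with each other for that alone. The counts were not set against those of other genes. These values describe likeness and nothing more. The gene most like Atp2a2 was ENSRNOG00000019529 (r = 0.989), with 204 ± 10.1 CPM in Control against 176 ± 15.6 in HFpEF (SD, n = 4 per group). The gene most like Ryr2 was ENSRNOG00000026880 (r = 0.979), with 20.03 ± 1.43 CPM in Control against 18.8 ± 1.14 in HFpEF (SD, n = 4 per group). Ryr2 itself came at place 778 among the genes most like Atp2a2, with r = 0.791, and Atp2a2 at place 252 among those most like Ryr2.

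Every Ryr2 expected count was a whole number, while every Atp2a2 expected count was not. RSEM gives a fractional count where reads fit more than 1 gene and are shared out, so the Atp2a2 values include an estimated share, whose size the table does not give. The gene also makes a muscle form and a widespread form of the pump by alternative splicing, which counts per gene do not separate.

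**Figure D4:**
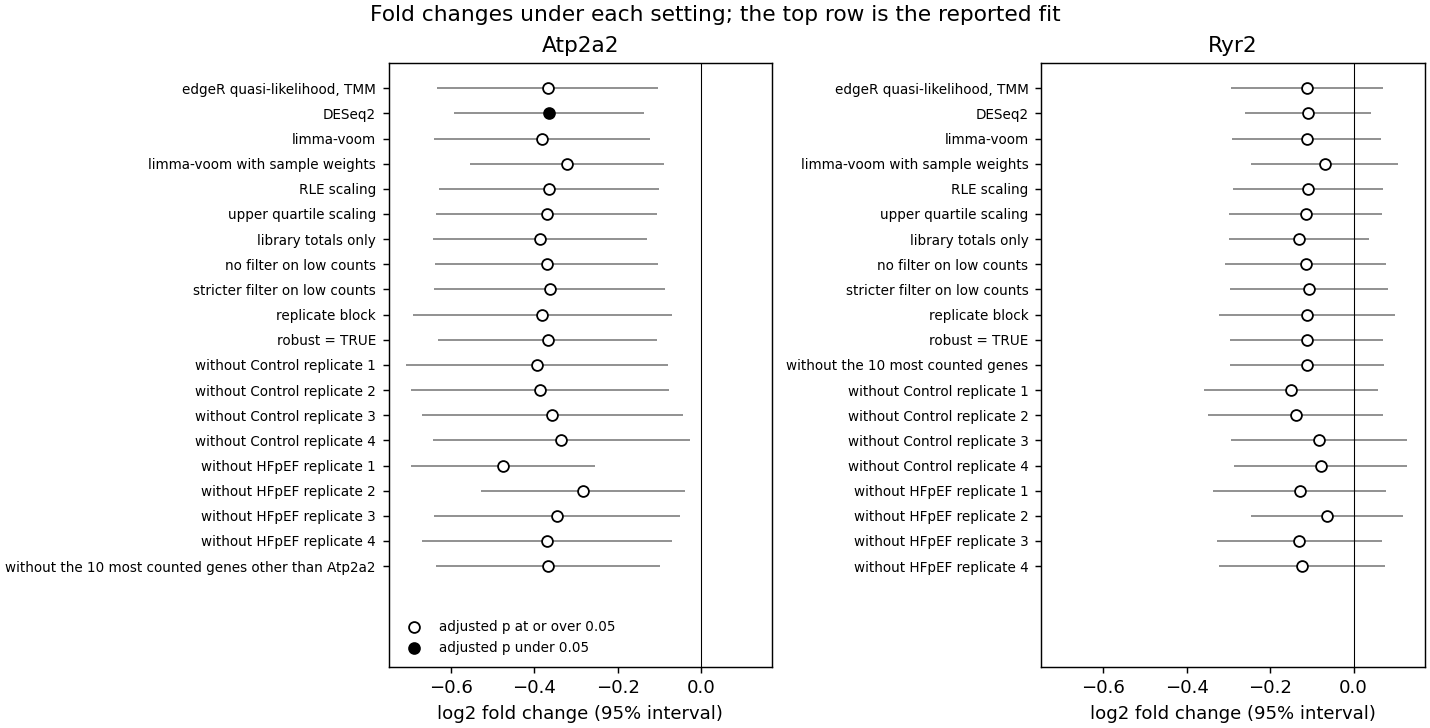
Log2 fold change of HFpEF over Control with its 95% interval for Atp2a2 (left) and Ryr2 (right) under each setting; filled points have an adjusted p under 0.05. All values lie below 0, those of Atp2a2 between -0.47 and -0.28 and those of Ryr2 between -0.15 and -0.06, and only Atp2a2 under DESeq2 is filled.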

How the data were processed

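The deposited values are expected counts per Ensembl gene, 1 column for each of the 8 libraries, made with RSEM 1.2.15 and Bowtie2 2.1.0 on build rn6, per the submitters' processing notes; neither annotation release nor strand setting is given in the sources used here. Counts were rounded, genes kept with filterByExpr (16313 genes, 99.95% of counts), scaled by TMM and tested with edgeR 4.0.16 (R 4.3.3), quasi-likelihood, two-sided, Benjamini-Hochberg adjusted; standard errors come from its F statistic. The ratio used the unrounded counts. Log2 CPM used a prior count of 2, and a count within 0.005 of an integer was taken as whole. The scripts were tested on simulated data. Within groups, no pair of libraries was a copy of another (chi-square over degrees of freedom 19.4 to 87.6). Counting errors cover counting only, since there are no molecular identifiers.

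Both genes and all lists were chosen with earlier results of these data known. The rule for named genes was both genes, calcium handling genes by symbol, and the genes most like each by correlation. Of the table's identifiers 0 could be paired with a symbol, so the 16 symbol lists were not run, and 1 most similar gene each is given by identifier. The comparison was repeated with DESeq2 1.42.0, with voom from limma 3.58.1, with other scalings and filters, a replicate block, robust fitting and each library left out.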

Additional observations from a re-analysis of the deposited data

Results flagged for a closer look

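In 1 of 10 sets of 4 values, a library stood apart by Dixon's test; chance alone sets apart about 1 set in 20. It was Ryr2 in HFpEF, where replicate 2 had 3496.9 normalised CPM against 3953.6 to 4004.0 in the other 3. Its gap to the nearest library was 0.900 of the group's range. The same library was lowest for Atp2a2 (7897.5 CPM), which was not set apart in its group.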

How the results depend on the processing

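Atp2a2 was lower in HFpEF in all 19 alternatives and Ryr2 in all 19. Atp2a2 was called only by DESeq2 (log2 fold change -0.36, adjusted p = 0.0269). Leaving out 1 library gave -0.47 to -0.28 for Atp2a2, -0.15 to -0.06 for Ryr2 and -0.35 to -0.23 for the log2 ratio. With 1 library fewer, the ratio's smallest possible p is 0.0571, so those tests could not pass 0.05. Leaving out the 10 most counted genes removes Atp2a2; with 10 others left out, chosen after seeing the data, its log2 fold change was -0.37. Calls over all genes went from 316 to 1248 with DESeq2 and 943 at a threshold of 0.1, and to 169 with library totals only, and ran from 22 to 332 with 1 library left out; without any scaling, log2 fold changes moved by a median of -0.019. The cause was not tested. Calls higher in HFpEF went from 251 to 856 with DESeq2, 668 at 0.1, 140 with library totals only and 6 with the replicate block, and ran from 21 to 234 with 1 library left out. Calls lower in HFpEF went from 65 to 392 with DESeq2, 275 at 0.1, 112 with sample weights, 37 with limma-voom and 29 with library totals only, and ran from 0 to 98 with 1 library left out. Of the fits with 1 library left out, the lowest count, 0, was that without Control replicate 3. In that fit 2522 genes, higher and lower together, were under 0.05 in edgeR's unadjusted p.

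A replicate block in edgeR left 6 called genes, 0 of them lower, with 2568 genes in either direction under 0.05 before adjustment. In that fit Atp2a2 stood at -0.38 on the log2 scale (adjusted p = 0.242) and Ryr2 at -0.11 (adjusted p = 0.569), and the paired log2 ratio was -0.27 (exact sign-flip p = 0.125, the smallest possible). Same-numbered libraries correlated at -0.022, -0.056, 0.068 and -0.16 in their deviations, values that were not compared with those of differently numbered pairs. The numbers were treated as names only because nothing in the labels says that they pair libraries. The planned calcium handling lists were not run, for want of symbols.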
